A study of Mus musculus with 6 samples.

Results

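The SLC25 family holds the carrier proteins that move metabolites, cofactors, nucleotides, phosphate and metals across the inner membrane of mitochondria, and a few members work in other membranes. Each carrier is a small protein built from a repeated domain, and most exchange a substrate of the matrix for another of the cytosol. The heart depends on them because its ATP is made almost wholly in mitochondria, whose phosphate, coenzymes and amino acids come in through these carriers. Transcripts of 39 SLC25 genes were followed here, out of 22063 genes measured. They were all genes with a symbol of the form Slc25a and a number, except 8 carriers of adenine nucleotides, citrate, dicarboxylates, oxoglutarate, aspartate and acylcarnitines.

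The RNA came from cardiomyocytes, the contracting cells of the heart, taken from wild-type (WT) mice by the Langendorff method, which digests the heart through its own vessels. The AKG group had been injected every day for 2 weeks with α-KG (α-ketoglutarate, a tricarboxylic acid cycle metabolite) at 300 mg per kg per day. The Control group had been injected with PBS over the same time. The labels give postnatal day 21 both for the mice that were injected and for those the cells came from, so the age at isolation is not clear. Each group held 3 libraries, and since nothing said whether a library came from 1 mouse or a pool, p-values measure only the spread between these libraries. The study profiled these cells to look for pathways through which α-KG acts on cardiomyocyte proliferation.

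Libraries held 14402876 to 15315236 counts in the AKG group and 16241120 to 17797368 in the Control group, so that a floor of 3 counts lay at 0.166 to 0.186 CPM in AKG libraries and at 0.186 to 0.221 CPM in Control libraries (CPM is the count as a rate of the library total after TMM scaling, which sets the bulk of genes equal between libraries). Of 8 defining heart muscle genes, 7 were lower after AKG, and their summed level was 29304 to 32199 CPM in AKG libraries and 61144 to 66158 CPM in Control libraries. In such bulk samples fewer cells of a type and less RNA per cell cannot be told apart. Of 8 markers each, 4 fibroblast, 5 smooth muscle and pericyte, 4 macrophage and 3 endothelial genes were lower, and 1, 1, 0 and 3 were higher. By the test used below, 25.2% of all tested genes were lower and 25.0% higher. The summed levels were 2387 to 3133 CPM in AKG and 2671 to 3343 CPM in Control libraries for fibroblasts, 1274 to 1471 and 2184 to 2392 CPM for smooth muscle and pericytes, 87.8 to 113 and 134 to 207 CPM for macrophages, and 2103 to 2650 and 2311 to 2541 CPM for endothelium. Neutrophil markers summed to 6.07 to 13.3 CPM in AKG and 1.10 to 1.97 CPM in Control libraries, and all 4 that could be tested were higher. Atrial transcripts (Sln, Myl7, Myl4, Bmp10 and Mybphl) summed to 359, 7.58 and 220 CPM in AKG 1, 2 and 3 and to at most 12.05 CPM in the Controls, with 3 tested and none past the threshold in edgeR's quasi-likelihood test (unadjusted p = 0.0301 for Mybphl, 0.0446 for Myl4 and 0.0551 for Myl7). The part of other cell types in the results below was not tested beyond the values given.

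Transcripts of the carriers were lower on balance after AKG, with a few clear exceptions. Of 39 members, 30 passed the filter on low counts, and 13 of those were lower and 4 higher after AKG at an adjusted p under 0.05 (edgeR's quasi-likelihood test, Benjamini-Hochberg adjustment over all 13117 tested genes). Among all tested genes 25.2% were lower and 25.0% higher by the same rule, against 43.3% and 13.3% of the tested members. Their median log2 fold change was -0.18, where that of all tested genes was 0.00. By at least 2-fold, 3 members were lower, against 6.12% of all tested genes, and 1 was higher, against 4.70%. The CPM values of the groups did not overlap for 19 of the 30 members, which is near the 59.2% of all tested genes.

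**Figure D1:**
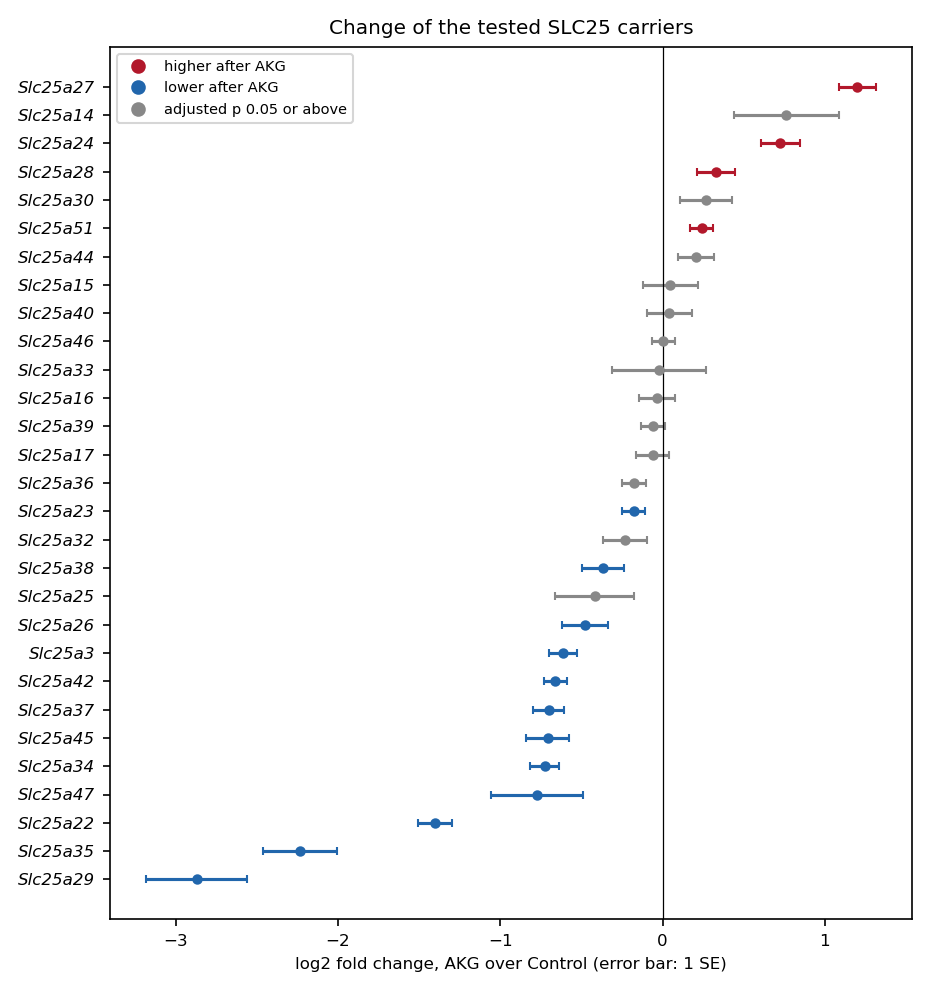
Log2 fold change of 29 of the 30 tested carriers (AKG over Control), with 1 SE either side, ordered by size. Blue points are 12 lower genes, red points the 4 higher genes and grey points the 13 not past the threshold. Slc25a29 lies lowest at -2.87 and Slc25a27 highest at 1.20.

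These directions are relative to the bulk of genes. With total counts as the scaling the median of all genes moved to 0.45, and then 15 members were higher and 6 lower, with a member median of 0.27. The carriers lay 0.18 below the median gene under both scalings. A change of scaling moves all genes nearly alike, so this gap could hardly have changed. Slc25a29, Slc25a35, Slc25a22, Slc25a34, Slc25a27 and Slc25a24 passed the threshold with the same direction in all 20 alternatives tried, and Slc25a3, Slc25a42, Slc25a37 and Slc25a45 in all 17 that did not rest on total counts or FPKM. In the authors' deposited table, 10 tested members with a false discovery rate under 0.05 had a log2 fold change below 0, and 3 had one above 0. Those fold changes are ratios of mean FPKM, and the sources used here do not say which values the rate tested. Slc25a26 was among the 10 at a log2 fold change of only -0.03. A test on FPKM itself, limma on log2(FPKM + 1), gave 15 higher and 4 lower members.

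The carriers differed widely in level. Per transcript length, as FPKM (fragments per kilobase, scaled to the library total, deposited by the authors), Slc25a3 stood far above the others at 646 ± 41.9 in AKG libraries and 732 ± 42.0 in Control libraries (mean ± SD, n = 3 each). Slc25a39 followed with 58.99 ± 0.406 FPKM in AKG and 43.98 ± 0.732 FPKM in Control libraries, and Slc25a34 with 30.1 ± 4.68 and 36.6 ± 3.13 FPKM. Next in order of mean FPKM came Slc25a22, Slc25a23, Slc25a42, Slc25a51 and Slc25a36. Slc25a22 and Slc25a23 averaged 23.4 and 22.9 FPKM over all 6 libraries, a difference smaller than the spread of either, and 12 members averaged at least 10. The 9 members not tested averaged at most 0.244 FPKM, and every tested member at least 1.08 FPKM. Slc25a3 made up 65.9 ± 0.616% of the summed FPKM of the 39 members in AKG libraries and 70.96 ± 0.496% in Control libraries, and these shares did not overlap.

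**Figure D2:**
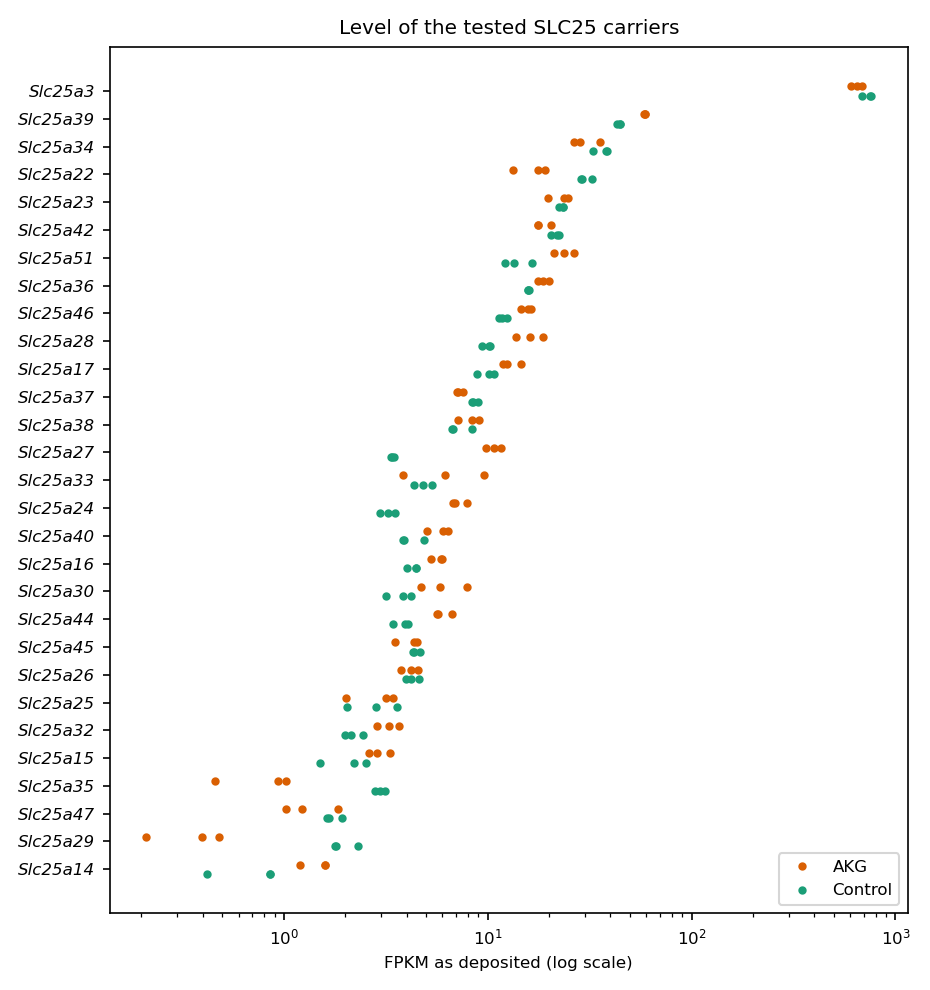
Deposited FPKM (log axis) of 29 of the 30 tested carriers in each of the 3 AKG (orange) and 3 Control (green) libraries, ordered by mean over all libraries. Slc25a3 lies more than an order of magnitude above the next carrier, and Slc25a29 and Slc25a35 show the widest gap between the groups with AKG below Control.

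The phosphate carrier Slc25a3 brings in the phosphate that ATP synthase needs. It had 710, 789 and 769 CPM in AKG libraries, against 1114, 1143 and 1212 CPM in Control libraries. Every AKG library lay below every Control library, and the log2 fold change was -0.61 (SE 0.0853, adjusted p = 5.38e-05 in edgeR's quasi-likelihood test). The call depended on the scaling, since the change was -0.17 with total counts (adjusted p = 0.115, range over 20 alternatives 2.47e-13 to 0.115). In mammals this gene is spliced into a heart and muscle form and a ubiquitous form, which values per gene do not separate.

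Among 5 tested carriers of amino acids and oxoacids, 3 were lower and none higher, against 25.2% and 25.0% of all tested genes. The lowest of all tested members was Slc25a29. Slc25a29, a carrier of basic amino acids, had 0.675, 0.373 and 0.777 CPM in AKG libraries, against 4.29, 3.91 and 5.45 CPM in Control libraries. Its counts were 12, 6 and 14 after AKG and 63, 63 and 74 in Control, so the groups were far apart although the transcript was scarce. The log2 fold change was -2.87 (SE 0.312, adjusted p = 6.27e-06 in edgeR's quasi-likelihood test), a level 7.31-fold lower after AKG. Slc25a22, the mitochondrial glutamate carrier, was much more abundant, with 26.1, 34.8 and 29.1 CPM in AKG libraries and 81.2, 71.7 and 84.6 CPM in Control libraries. It changed by -1.40 (SE 0.105, edgeR quasi-likelihood adjusted p = 3.37e-07), the smallest p-value among the members.

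Its paralog Slc25a18, the other glutamate carrier, had only 27 counts over the AKG libraries and 16 over the Control libraries and was not tested. The ratio of Slc25a22 to Slc25a18 in FPKM was 54.5 ± 14.4 after AKG and 194 ± 49.5 in Control, so Slc25a22 held nearly all glutamate carrier transcript in both groups. Slc25a38, which carries glycine for haem synthesis, had 9.39, 12.5 and 10.8 CPM in AKG libraries and 13.3, 14.9 and 13.9 CPM in Control libraries. Its fall of -0.37 (adjusted p = 0.0299 in edgeR's quasi-likelihood test) was not past the threshold without AKG replicate 1 (0.115), AKG replicate 3 (0.0521), Control replicate 2 (0.114) or Control replicate 3 (0.0668), with DESeq2 (0.0587) or in the fit with the atrial level (-0.16, 0.484), over a range of 0.0159 to 0.682 in 20 alternatives, and its sign turned to 0.07 with total counts. The ornithine carrier Slc25a15 had a log2 fold change of 0.05 and the branched-chain amino acid carrier Slc25a44 of 0.21, neither past the threshold. The ornithine carrier Slc25a2 and the oxoadipate and oxoglutarate carrier Slc25a21 were at the edge of detection, with 10 and 5 counts over the AKG libraries and 14 and 5 over the Control libraries.

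**Figure D3:**
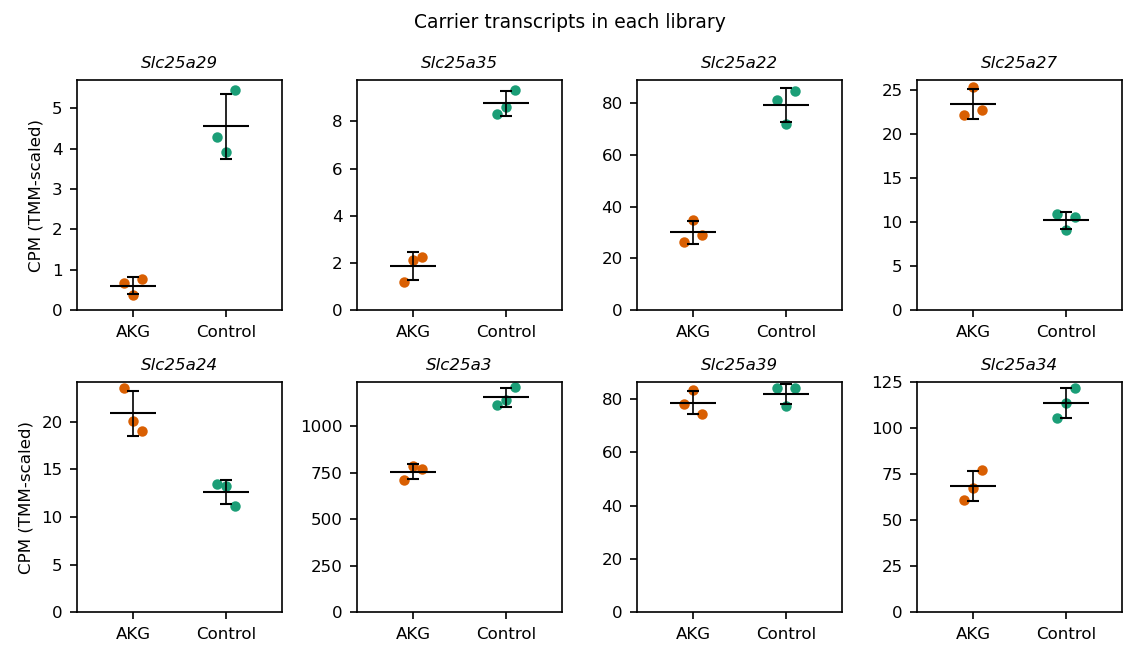
CPM of 8 carriers in each library, AKG (orange) left of Control (green), with the group mean and SD as black bars and axes from 0. Slc25a29, Slc25a35, Slc25a22, Slc25a3 and Slc25a34 lie lower and Slc25a27 and Slc25a24 higher after AKG without overlap, and the groups overlap for Slc25a39.

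Among the less characterised carriers, 4 of 5 tested members were lower and none higher, where 25.2% and 25.0% of all tested genes were. Slc25a35 had 1.18, 2.11 and 2.27 CPM in AKG libraries, against 8.30, 8.63 and 9.35 CPM in Control libraries, a log2 fold change of -2.24 (SE 0.228, adjusted p = 3.55e-06 in edgeR's quasi-likelihood test). In the GENCODE M21 annotation, 31.3% of its exon bases overlap Rangrf on the opposite strand. Raw Rangrf counts were also lower, at a mean of 158 after AKG and 303 in Control. Unlike CPM, these means were not scaled between libraries, and no test of them is given. The sources used here do not say whether counting used strand, so reads of this pair cannot be told apart in the overlap. Slc25a34, close in sequence to Slc25a35, was the third most abundant member, with 61.0, 67.8 and 77.6 CPM in AKG libraries and 106, 114 and 122 CPM in Control libraries (log2 fold change -0.73). Slc25a45 averaged 7.65 ± 0.682 CPM after AKG and 12.5 ± 0.835 CPM in Control (SD, n = 3 each, log2 fold change -0.71).

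Slc25a47, known mainly from liver, stood at 1.89 ± 0.640 CPM after AKG and 3.23 ± 0.413 CPM in Control, and its edgeR quasi-likelihood adjusted p was 0.0354. That call was lost without AKG replicate 2 (0.088) or 3 (0.12) and without Control replicate 1 (0.123), 2 (0.0514) or 3 (0.0702). It was also lost with DESeq2 (0.0512), in the fit with the atrial level (0.0942), with total counts (-0.33, 0.318), with limma on FPKM (0.195 and 0.191) and with AKG replicate 2 alone (0.0692), so that 9 of 20 alternatives kept it, over a range of 0.00885 to 0.318. Slc25a46, an outer membrane protein that takes part in mitochondrial fission, was nearly level at 57.6 ± 1.23 CPM after AKG and 57.4 ± 0.142 CPM in Control. Slc25a43 had 11 counts over the AKG libraries and 8 over the Control libraries. Slc25a48 had no count in any library, a level under the floor of 3 counts in each. Slc25a53 had 16, 8 and 14 counts in AKG libraries and 4, 4 and 2 in Control libraries, and it passed the threshold as higher only when no filter on low counts was set (log2 fold change 1.67, edgeR quasi-likelihood adjusted p = 0.038).

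Carriers of coenzymes and nucleotides were mixed, with 3 lower, 1 higher and 5 not past the threshold among 9, where 25.2% and 25.0% of all tested genes were lower and higher. The coenzyme A carrier Slc25a42 had 48.3, 50.3 and 53.3 CPM in AKG libraries and 77.8, 78.9 and 83.5 CPM in Control libraries (log2 fold change -0.66). Slc25a16, linked with coenzyme A import in yeast, had 16.1, 14.9 and 15.3 CPM after AKG and 16.7, 14.0 and 16.6 CPM in Control, and these values overlapped. Their count ratio, Slc25a16 over Slc25a42, was 0.305 ± 0.0243 in AKG libraries and 0.197 ± 0.0187 in Control libraries, with no overlap.

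Slc25a51, which imports NAD into mitochondria, rose to 75.8, 70.1 and 72.5 CPM in AKG libraries, against 58.3, 64.2 and 62.4 CPM in Control libraries. The change was small, at 0.24 (SE 0.0732, adjusted p = 0.0144 in edgeR's quasi-likelihood test), and was not past the threshold without Control replicate 1 (0.0801, range over 20 alternatives 1.63e-05 to 0.173, with 0.173 under the atrial covariate and 0.0906 with AKG replicate 2 alone). Slc25a26, the S-adenosylmethionine carrier, averaged 6.93 ± 0.594 CPM after AKG and 9.64 ± 0.394 CPM in Control (SD, n = 3 each, log2 fold change -0.48). That call was lost with AKG replicate 2 alone and in the fit with the atrial level (edgeR quasi-likelihood adjusted p = 0.163). It was also lost with total counts (log2 fold change -0.035, edgeR quasi-likelihood adjusted p = 0.857) and with limma on log2(FPKM + 1) (-0.026, 0.849). In all, 15 of 20 alternatives kept it, over a range of 0.00898 to 0.857. The pyrimidine nucleotide carriers Slc25a33 and Slc25a36 were not past the threshold. Slc25a33 had 6.24, 10.4 and 14.8 CPM in AKG libraries and 9.87, 10.1 and 12.1 CPM in Control libraries, so the AKG libraries spanned the Controls on both sides. Slc25a36 had 72.0, 65.5 and 64.8 CPM after AKG and 78.4, 72.2 and 78.1 CPM in Control, and its edgeR quasi-likelihood adjusted p was 0.0637, or 0.034 without AKG replicate 1 (range over 20 alternatives 0.0137 to 0.184). The lowest p in that range, with total counts, belonged to the opposite direction (0.27). The folate carrier Slc25a32 and the peroxisomal carrier Slc25a17 had log2 fold changes of -0.23 and -0.06. Neither was past the threshold, and the groups overlapped for both. With limma on log2(FPKM + 1) they were higher, by 0.42 (adjusted p = 0.0105) and 0.36 (0.0134).

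The calcium-regulated ATP-Mg/phosphate carriers, which load the matrix with adenine nucleotides, shifted in their mix. Slc25a24 rose to 23.5, 20.1 and 19.0 CPM in AKG libraries, against 13.4, 13.3 and 11.1 CPM in Control libraries (log2 fold change 0.72, SE 0.120, edgeR quasi-likelihood adjusted p = 0.000226). Slc25a23, the most abundant of the 3 by FPKM, had 56.6, 55.5 and 57.5 CPM after AKG and 63.8, 62.6 and 65.4 CPM in Control. Its fall of -0.18 had an edgeR quasi-likelihood adjusted p of 0.0476, and the call was lost when any library but AKG replicate 3 was left out. The p was 0.0887 without AKG replicate 1, 0.121 without AKG replicate 2, and 0.11, 0.0891 and 0.146 without Control replicate 1, 2 and 3, within a range of 0.0164 to 0.856 over 20 alternatives. The call was also lost with DESeq2 (0.118), with no low-count filter (0.0936), with RLE size factors (0.0503), with the replicate block (0.0719), in the fit with the atrial level (0.143), with AKG replicate 2 alone (0.0798) and with limma on FPKM, and with total counts the sign turned to 0.27 (0.0164). Slc25a25 had 9.28, 9.01 and 5.44 CPM in AKG libraries and 8.10, 9.81 and 13.8 CPM in Control libraries, which overlapped.

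Within each library the count ratio of Slc25a24 to Slc25a23 was 0.415, 0.362 and 0.331 in AKG libraries and 0.210, 0.212 and 0.170 in Control libraries. The ratio does not depend on the scaling, and its groups did not overlap. The related genes Slc25a31, a testis ADP/ATP carrier, Slc25a41 and Slc25a54 had 19, 3 and 0 counts over the AKG libraries and 32, 0 and 0 over the Control libraries, and none was tested.

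**Figure D4:**
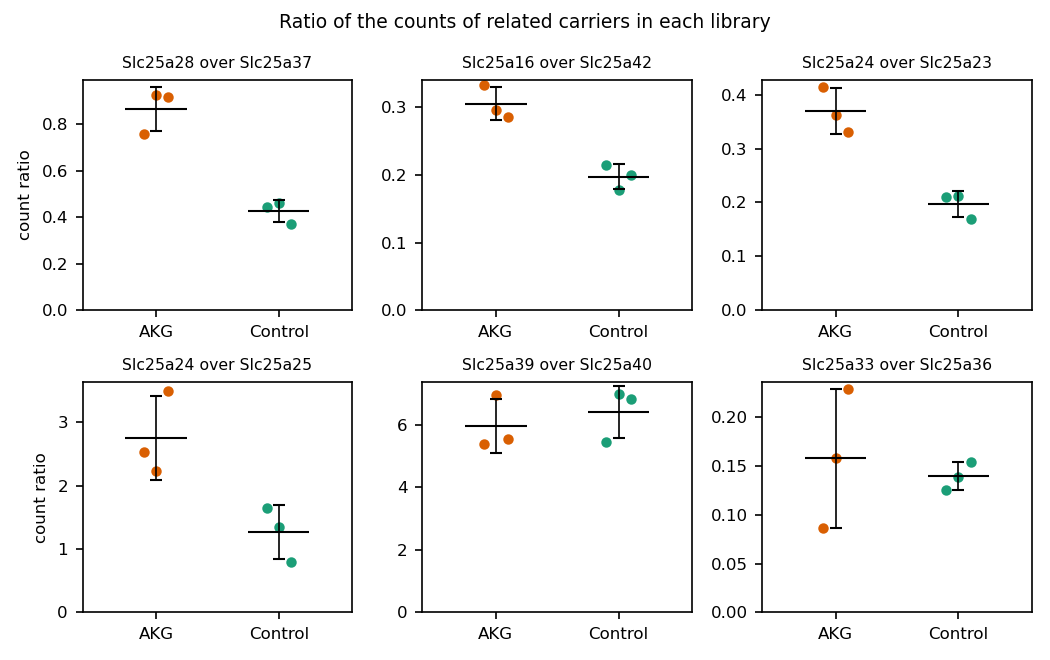
Ratio of the counts of 6 pairs of related carriers within each library, AKG (orange) left of Control (green), with group mean and SD in black and axes from 0. The groups are apart for Slc25a28 over Slc25a37, Slc25a16 over Slc25a42 and Slc25a24 over Slc25a23 and Slc25a25, and overlap for Slc25a39 over Slc25a40 and Slc25a33 over Slc25a36.

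The mitoferrins, which carry iron into mitochondria for haem and iron-sulfur clusters, moved in opposite directions. Slc25a37 (mitoferrin 1), known from red cell precursors, had 23.7, 25.7 and 22.0 CPM in AKG libraries, against 39.5, 35.3 and 41.5 CPM in Control libraries (log2 fold change -0.70, SE 0.0963, edgeR quasi-likelihood adjusted p = 4.71e-05). Slc25a28 (mitoferrin 2), the widely expressed form, had 17.9, 23.7 and 20.2 CPM after AKG and 17.5, 16.3 and 15.5 CPM in Control. Its rise of 0.33 had an edgeR quasi-likelihood adjusted p of 0.033, and was not past the threshold without AKG replicate 2 (0.151), Control replicate 2 (0.0888) or Control replicate 3 (0.113), with DESeq2 (0.0565), with limma-voom (0.0508) or with upper quartile scaling (0.0506), in a range of 5.27e-05 to 0.151 over 20 alternatives. The count ratio of Slc25a28 to Slc25a37 was 0.756, 0.923 and 0.917 in AKG libraries and 0.443, 0.460 and 0.372 in Control libraries. Every AKG ratio thus lay above every Control ratio.

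Red cell markers did not separate the groups in the same way. They summed to 1572, 2126 and 1469 CPM in AKG libraries and 1598, 1389 and 1961 CPM in Control libraries, and of 7 tested, Slc4a1 was higher and none was lower. Haemoglobin and other red cell transcripts were therefore present in each library, and their part in the level of Slc25a37 was not tested. Among 16 other genes of iron handling and haem synthesis, 11 were lower and 1 higher, with a median log2 fold change of -0.39. Of all tested genes 25.2% were lower and 25.0% higher. The glutaredoxin Glrx5, which takes part in iron-sulfur cluster assembly, changed by -1.18, the iron-sulfur scaffold Iscu by -1.05, the haem synthesis enzyme Alas1 by -2.06 and the transferrin receptor Tfrc, which takes up iron, by -2.47.

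The glutathione carriers Slc25a39 and Slc25a40 were both not past the threshold. Slc25a39 had 78.1, 83.2 and 74.6 CPM in AKG libraries and 84.0, 77.5 and 84.3 CPM in Control libraries (log2 fold change -0.06, edgeR quasi-likelihood adjusted p = 0.533). Slc25a40 had 14.5, 12.0 and 13.5 CPM after AKG and 15.4, 11.1 and 12.4 CPM in Control. With total counts Slc25a39 was higher by 0.38 (adjusted p = 0.000728, range over 20 alternatives 0.000494 to 0.922), as was the bulk of genes.

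The largest rise among tested members was in 1 of 3 carriers related to the uncoupling proteins, which can let protons or anions leak through the inner membrane. Slc25a27 (UCP4), known mainly from brain, rose to 22.1, 25.3 and 22.7 CPM in AKG libraries, against 10.9, 9.13 and 10.5 CPM in Control libraries. The groups were well apart, with a log2 fold change of 1.20 (SE 0.113, adjusted p = 1.76e-06 in edgeR's quasi-likelihood test), a level 2.30-fold higher. Slc25a14 (UCP5), also known from brain, had 1.74, 2.61 and 2.11 CPM after AKG and 0.817, 1.43 and 1.55 CPM in Control, a log2 fold change of 0.76 that was not past the threshold (edgeR quasi-likelihood adjusted p = 0.0652). Slc25a30, known from kidney, had 14.6, 18.7 and 23.2 CPM after AKG and 13.6, 16.8 and 16.5 CPM in Control. It had an edgeR quasi-likelihood adjusted p of 0.182, and of 0.0154 without AKG replicate 1 (log2 fold change 0.43, range of p over 20 alternatives 0.00368 to 0.604). The uncoupling protein genes Ucp2 and Ucp3 went the other way, at 154 and 57.3 CPM after AKG and 234 and 96.7 CPM in Control, with log2 fold changes of -0.61 and -0.76.

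For some carriers the counts that stood behind a unit of FPKM differed between the groups, as happens when the transcript length assigned to a gene differs. Relative to 10158 genes with enough counts, this length after AKG was 77.2% of that in Control for Slc25a32 (86.4% without AKG replicate 1, chosen after seeing the data) and 122% for Slc25a23, with no overlap between the groups. The size of these differences exceeded that of 99.1% and 98.3% of those genes. For Slc25a16, Slc25a34 and Slc25a42 the figure was within 0.1% of equality, at 100.04%, 100.05% and 100.08%. The isoforms behind a gene's length were not analysed here.

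Promoters were read from RefSeq on build GRCm38.p6 as the 250 bases before each annotated start, for 28 of the 39 members. The most abundant carrier, Slc25a3, and the carrier with the largest change, Slc25a29, are shown, with capitals marking a match to the NRF1 motif (nuclear respiratory factor 1, a regulator of mitochondrial genes). Slc25a3 lies at chr10:91123968-91124217 and Slc25a29 at chr12:108835877-108836126, both on the minus strand.
Slc25a3: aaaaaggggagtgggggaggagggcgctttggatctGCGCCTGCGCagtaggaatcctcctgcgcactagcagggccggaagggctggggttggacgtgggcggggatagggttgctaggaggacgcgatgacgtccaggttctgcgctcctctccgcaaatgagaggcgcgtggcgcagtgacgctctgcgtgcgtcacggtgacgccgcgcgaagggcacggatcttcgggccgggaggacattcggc
Slc25a29: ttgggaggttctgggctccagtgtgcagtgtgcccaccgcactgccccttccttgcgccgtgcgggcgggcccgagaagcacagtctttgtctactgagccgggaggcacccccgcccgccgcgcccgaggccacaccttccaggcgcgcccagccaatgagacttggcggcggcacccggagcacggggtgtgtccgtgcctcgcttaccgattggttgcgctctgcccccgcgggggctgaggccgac
The NRF1 motif, searched on both strands like those that follow, was found for 2 of 28 members and for 4.27% of 26734 genes, counting a gene when any of its starts held it. The motif of the oestrogen-related receptors, TNAAGGTCA, was found for 0 members and 1.29% of genes, and the ETS motif CCGGAAGT for 0 members and 3.26% of genes. The cyclic AMP element TGACGTCA was found for 2 members and 1.78% of genes, the E-box CACGTG for 5 members and 6.88% of genes and the TATA box TATAAA for 2 members and 14.3% of genes. None of these motifs contains another, and Slc25a29 held none of the 6 in this window.

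Other mitochondrial genes were lower more uniformly, where 25.2% of all tested genes were lower and 25.0% higher. Of the SLC25 genes left out of the count above, together with the uncoupling proteins and the related Mtch1 and Mtch2, 12 were tested, and 9 were lower and 1 higher, with a median log2 fold change of -0.39. The oxoglutarate carrier Slc25a11 changed by -1.07 and the heart ADP/ATP carrier Slc25a4 by -0.86, and the citrate carrier Slc25a1 was higher by 0.60. Of 22 inner membrane genes outside the family, chosen mostly for transport, 13 were lower and 1 higher, with a median of -0.44. Both subunits of the pyruvate carrier were lower, Mpc2 by -1.58 and Mpc1 by -1.28, and so were the ion exchanger Letm1 (-1.39) and the inner membrane protein gene Mtfp1 (-2.64). Of 36 nuclear subunits of the respiratory chain and ATP synthase, 34 were lower and none higher, with a median of -0.99. Over all 430 tested genes without an Slc25a symbol that had the deposited ontology term for the mitochondrial inner membrane, 317 were lower and 21 higher, with a median of -0.65. Only Slc25a symbols were left out of this set, so mitochondrially encoded genes, uncoupling proteins and genes of the lists above could enter it. The carriers' median of -0.18 lay nearer to 0 than each of these medians, a difference that was described and not tested.

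**Figure D5:**
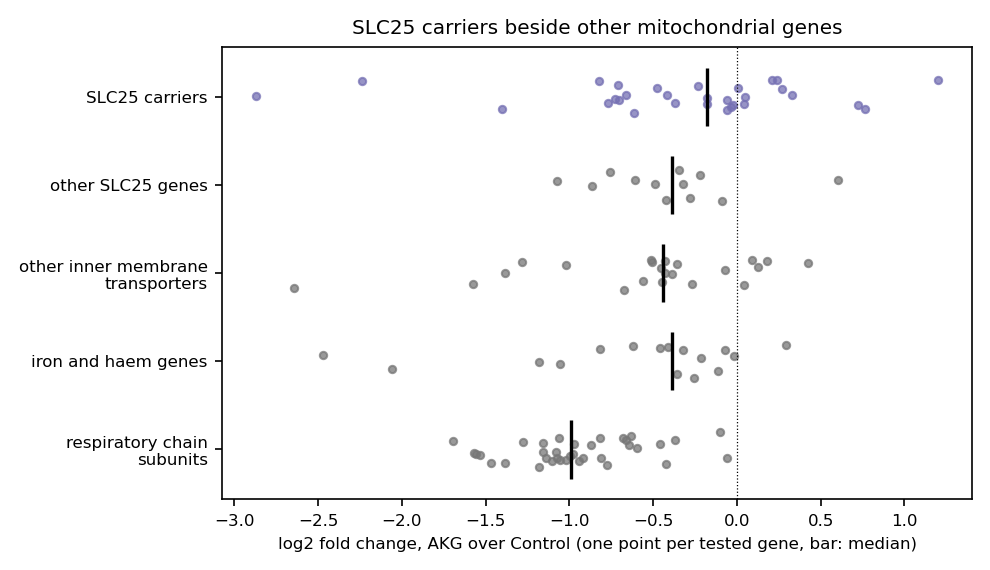
Log2 fold change (AKG over Control) of the 30 tested carriers and of the tested genes of 4 other mitochondrial lists, 1 point per gene with the median as a black bar. The medians are -0.18 for the carriers, -0.39 for other SLC25 genes, -0.44 for other transporters, -0.39 for iron and haem genes and -0.99 for respiratory chain subunits. The list of other transporters also holds Mtfp1.

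Summed over the 39 carriers the level was 1438, 1548 and 1531 CPM in AKG libraries and 2013, 2027 and 2152 CPM in Control libraries. Without Slc25a3 the sum was 750 ± 18.3 CPM after AKG and 908 ± 28.9 CPM in Control (SD, n = 3 each). Like the calls, these sums are relative to the bulk of genes. In FPKM, scaled to the library total, the sums over the 39 carriers overlapped between the groups. They were 925, 972.2 and 1046 in AKG libraries and 971.9, 1071 and 1051 in Control libraries. With AKG replicate 2 alone, the AKG library at the Control level of atrial transcripts, against the 3 Controls, 9 members were lower and 3 higher, and the counts were also 9 and 3 in a fit that included the atrial level of each library. In the fit with AKG replicate 2 alone the spread comes from the Control libraries only, and that library is assumed to vary like them. Calls over all genes were fewer in both fits, at 2800 lower and 2728 higher in the first and 2262 and 2169 in the second, against 3309 and 3281.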

How the data were processed

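The authors deposited, for each gene, the estimated count and FPKM of every library. The authors' log2 fold change, taken from mean FPKM, and their p-value stood beside them. The deposited counts were whole numbers, with 60 values of 0 beside an FPKM above 0. Tools listed by the submitters' processing notes were RSEM 1.2.19, DESeq2 1.20.0 and HISAT2 2.1.0. The sources used here do not give their roles, the genome build, the annotation or the use of strand. FPKM is scaled to the library total, so it rises for other genes where very abundant transcripts fall. The authors' log2 fold changes were higher than those from counts by a median of 0.44.

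The count test was run with edgeR 4.0.16 under R 4.3.3: filterByExpr (minimum count 10, minimum total 15), TMM scaling, and the quasi-likelihood test with robust dispersion, adjusted by Benjamini-Hochberg over 13117 genes with a threshold of 0.05. The script was tested on simulated data. An SE here equals the size of a log2 change over the root of its F statistic. The 30 rows without a symbol held at most 0.000112% of a library's counts and were left out. Replicates differed by more than counting noise. Alternatives used DESeq2 1.42.0, limma 3.58.1 (voom, and log2 FPKM with pseudocounts of 1 and 0.1 for genes at FPKM 1 or more in 3 libraries), other scalings and filters, a replicate block, an atrial covariate and left-out libraries. Members, gene lists and alternatives were chosen with earlier results of these data known. Members changed at least 2-fold, members of related pairs and the 3 most abundant were given per library, others by values or counts. Up to 4 genes of each comparison list were to be named by smallest p, and Slc25a1, Tfrc, Rangrf and Slc25a53 were singled out after their values were seen. Brown adipocyte markers summed to 19.5 to 22.8 CPM in AKG and 27.5 to 33.7 CPM in Control libraries, with 1 of 2 tested lower. Of the tested members, 1 enters the counts, sums and medians and is not reported here by name.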

Additional observations from a re-analysis of the deposited data

How the results depend on the processing

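The main counts were 4 higher and 13 lower carriers. With total counts as the scaling they were 15 and 6, with limma on log2(FPKM + 1) 15 and 4, and with limma on log2(FPKM + 0.1) 14 and 4. These settings do not remove the shift of the bulk of genes. In the other alternatives the counts stayed within 1.5 times. Leaving out 1 library gave 3 to 5 higher and 10 to 12 lower. Whether the replicate numbers paired the libraries could not be told. Correlations of same-numbered deviations were 0.196, -0.0729 and 0.0660, and those of differently numbered ones -0.166 to 0.0979. With the replicate block 4 were higher and 12 lower, Slc25a23 being lost (adjusted p = 0.0719 in edgeR's quasi-likelihood test). Signs turned with total counts for Slc25a38 (0.0699), Slc25a23 (0.27), Slc25a36 (0.27), Slc25a39 (0.38), Slc25a17 (0.38), Slc25a16 (0.41), Slc25a25 (0.0181), Slc25a32 (0.21) and Slc25a33 (0.43). They turned with log2(FPKM + 1) for Slc25a38 (0.16), Slc25a36 (0.23), Slc25a32 (0.42), Slc25a39 (0.42), Slc25a17 (0.36), Slc25a16 (0.34), Slc25a25 (0.0213) and Slc25a33 (0.30), and with log2(FPKM + 0.1) for Slc25a38 (0.18), Slc25a36 (0.24), Slc25a32 (0.55), Slc25a39 (0.42), Slc25a17 (0.39), Slc25a16 (0.40), Slc25a25 (0.0277) and Slc25a33 (0.33). Other turns were of carriers past the threshold in neither fit. They were Slc25a46 with upper quartile scaling (-0.0212), and with the atrial covariate Slc25a39 (0.0153), Slc25a40 (-0.13), Slc25a15 (-0.0673), Slc25a46 (-0.0201) and Slc25a33 (0.0766). With AKG replicate 2 alone they were Slc25a39 (0.0293), Slc25a40 (-0.11), Slc25a15 (-0.0502) and Slc25a46 (-0.0124). Leaving out 1 library gave -0.0637 to 0.184 for Slc25a40, -0.00443 to 0.0245 for Slc25a46, -0.36 to 0.25 for Slc25a33, -0.12 to 0.17 for Slc25a15 and -0.12 to 0.00885 for Slc25a16. The causes were not tested. Depth limits the 9 carriers below the count filter.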
